A study of Homo sapiens with 6 samples.

Results

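TWF1, TWF2, TAGLN2, CNN3, CORO1C, LASP1 and CAP1 encode actin-binding proteins described as targets of the microRNA miR-1. Their transcripts were read through every probe set that the annotation of the U133 Plus 2.0 array gives to 1 of these symbols alone. This gave 13 of the 54613 probe sets that are not array controls, 5 for TWF1, 2 each for TAGLN2, CNN3 and CORO1C, and 1 each for TWF2 and LASP1. CAP1 had no probe set under its symbol alone in the annotation used here and was not analysed here. A set of 10 probe sets, which covers the other 6 genes, had a mean log2 value of at least 5.11, the median over all probe sets, and was tested. The 3 probe sets below it all belong to TWF1. In identifiers of this array the ending _s_at marks probes shared by several transcripts, which for the members are TWF1 214007_s_at, TAGLN2 210978_s_at and CORO1C 221676_s_at.

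The arrays hold RNA of KHOS and U-2OS cells, a pair of established human osteosarcoma lines, in 3 groups for each line. The first group of a line received pEP-miR-1, a plasmid vector that expresses miR-1, the second the empty vector plasmid pEP-miR-Null, and the third is labelled control, with no plasmid named. Transfection was transient, with Lipofectamine LTX and Plus Reagent, and RNA of the plasmid groups was taken after 48 hours. For the control groups no such time is recorded here. Each of the 6 arrays held RNA pooled from 3 flasks. There is thus 1 array for each line and group, and no value within 1 line is replicated. The labels do not say whether control cells met the reagent, and neither the mature miR-1 nor the share of cells that took up a plasmid was analysed here.

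Actin filaments grow from monomers at one end and lose them at the other, and proteins that hold monomers, cap or cut filaments, or tie filaments together set how fast this turns over. Twinfilins bind monomers and cap filament ends, coronins work with the Arp2/3 complex and cofilin at branched networks, and transgelins and calponins lie along filaments. LASP1 links filaments to focal adhesions. miR-1 is abundant in heart and skeletal muscle, and TWF1 is among the transcripts long used to read out its action. A microRNA pairs with messenger RNAs mainly through its seed, bases 2 to 8 counted from its 5′ end, and lowers their stability or translation.

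The sequence that the miR-1 plasmid is meant to supply is shown with the other human mature microRNAs that share its seed, because a transcript that pairs with one seed pairs with them all. The seed is in capitals and the sequences are from RefSeq, on GRCh38.p14.
hsa-miR-1-3p: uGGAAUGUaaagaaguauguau
hsa-miR-206: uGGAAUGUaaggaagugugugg
hsa-miR-613: aGGAAUGUuccuucuuugcc
The miR-1 sequence is encoded at 2 loci, at chr20:62554351-62554372 on the plus strand and at chr18:21829015-21829036 on the minus strand. The miR-206 sequence lies at chr6:52144401-52144422 and that of miR-613 at chr12:12764709-12764728, both on the plus strand. Among 2545 mature entries of the table, only these 3 names carry the seed. The letters that pair with it in a transcript are ACAUUCC. Sites with these letters in the members' transcripts were not analysed here.

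Values are log2 expression after robust multi-array averaging (RMA) by the authors. Array medians ran from 4.98 to 5.15. Osteoblast lineage markers were partly present, with 5 of 8 above the level tested (RUNX2, COL1A1, SPARC, SPP1 and VIM), COL1A2 and ALPL below it, and BGLAP without a probe set of its own. RUNX2 itself read 4.23 and 4.72 on the U-2OS miR-1 and miR-null arrays, under the level tested, against 6.74 on the U-2OS control array. Of the epithelial markers, EPCAM and KRT8 were above that level and CDH1 and KRT19 below it. The 4 skeletal muscle markers were all below it, as were PTPRC of blood cells and CDH5 and VWF of endothelium. CD3E and HBB of blood cells and PECAM1 of endothelium were above it, so a value above that level does not by itself mark a cell type.

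Between the miR-1 and the miR-null arrays, the 95% interval of the fitted change included 0 for every tested member probe set. A typical interval over all probe sets reached 0.49 to either side. None of the 10 member probe sets passed (limma with Benjamini-Hochberg adjustment over all 27307 probe sets tested, threshold 0.05, treatment and line as additive terms), and 0% of all probe sets did. The furthest from 0 was the weaker of the tested TWF1 probe sets, 1.31-fold lower with miR-1, while the stronger TWF1 probe set, both TAGLN2 probe sets, TWF2 and LASP1 had fitted log2 changes between -0.08 and 0.11. Of the 10, 7 had negative fitted changes, and their median was -0.09, against 60.3% negative and a median of -0.04 over all probe sets. At an unadjusted p under 0.05 there were 0 members and 208 probe sets in all, where 1365.4 would be expected if nothing differed. The exact Mann-Whitney test that the design text names called 0 as well, and it cannot give a p below 0.333 with 2 arrays against 2 or below 0.133 with 2 against 4. Here and below, a lower value can mean fewer cells that express a gene or less RNA per cell, which bulk RNA cannot tell apart.

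**Figure D1:**
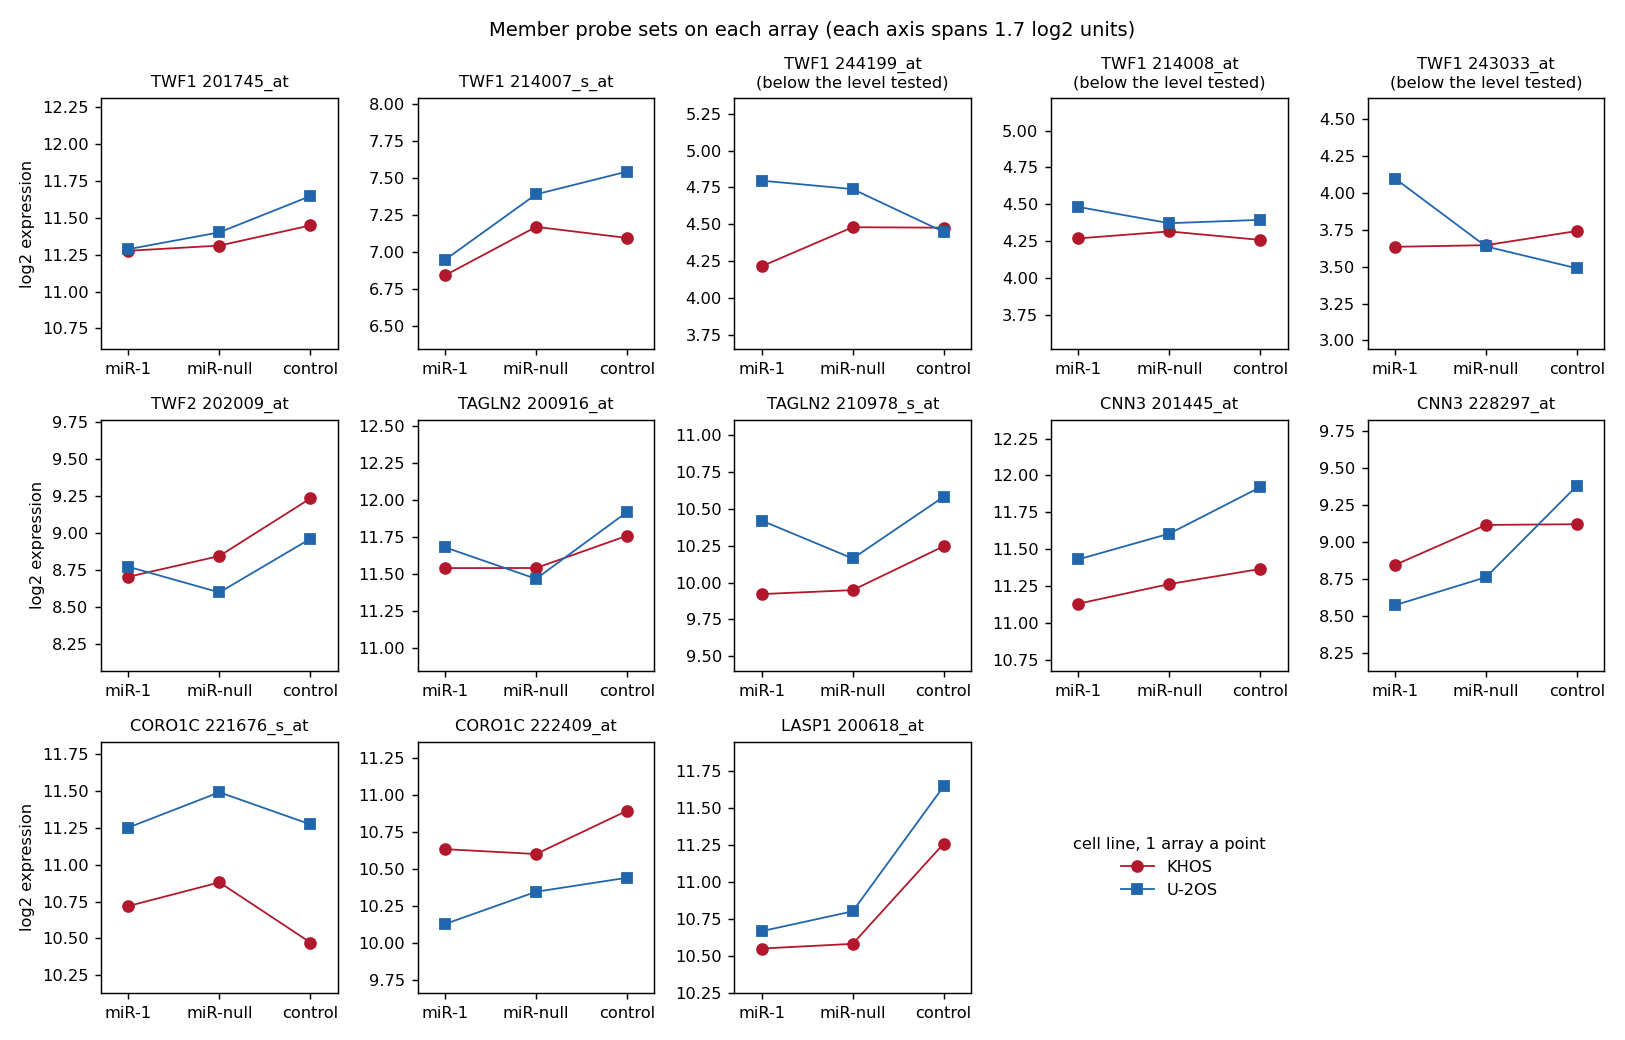
Log2 expression of the 13 member probe sets (vertical axes, each spanning 1.7 log2 units) on the miR-1, miR-null and control arrays (left to right), with 1 point an array, KHOS as circles and U-2OS as squares. The LASP1 points of all 4 plasmid arrays lie between 10.55 and 10.80, below the control points at 11.26 and 11.65, while the points of TWF1 214007_s_at are lowest with miR-1 in both lines.

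The twinfilins bind actin monomers and cap filament ends. TWF1 201745_at, its strongest probe set, read 11.28 with miR-1, 11.31 with miR-null and 11.45 in control KHOS cells. In U-2OS cells those groups read 11.29, 11.40 and 11.65. The miR-1 array was thus the lowest of its line in both, but by 0.04 and 0.11 below miR-null, and the fitted change was -0.07 ± 0.18 (SE, limma over 6 arrays, 95% interval -0.50 to 0.35).

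TWF1 214007_s_at, a second probe set of the gene, read 6.84 with miR-1, against 7.17 with miR-null and 7.09 in control KHOS cells. In U-2OS cells it read 6.95 with miR-1, against 7.39 with miR-null and 7.54 in control cells. Both miR-1 arrays lay below all 4 others, an order whose share over all probe sets was not analysed here. The change from miR-null was -0.33 for KHOS cells and -0.44 for U-2OS cells. The fitted change of -0.39 ± 0.19 (95% interval -0.83 to 0.06) was lower than that of all but 2.96% of probe sets. It did not pass (limma adjusted p = 1). It was the single member probe set lower by at least 1.2-fold in both lines, a fold the design text names, and 2.5% of all probe sets were.

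The remaining TWF1 probe sets, 244199_at, 214008_at and 243033_at, had means of 3.71 to 4.53, below the level tested. Their miR-1 minus miR-null values in KHOS were -0.26, -0.05 and -0.01, and in U-2OS 0.06, 0.11 and 0.46. Their levels over all arrays ran from 4.22 to 4.80, 4.26 to 4.48 and 3.49 to 4.10, where the lowest value of any probe set was 2.83. The control arrays lay inside these ranges or at an end of them, with 4.48, 4.26 and 3.74 for KHOS cells and 4.45, 4.40 and 3.49 for U-2OS cells.

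TWF2, the other twinfilin, read 8.70 with miR-1, 8.85 with miR-null and 9.24 in control KHOS cells. In U-2OS cells it read 8.77 with miR-1, 8.60 with miR-null and 8.96 in control cells. The miR-1 array was below miR-null in KHOS by 0.14 and above it in U-2OS by 0.17, so the fitted change was 0.02 ± 0.19 (95% interval -0.44 to 0.47). The interaction term, which sets miR-1 against the mean of miR-null and control in each line, was -0.33 ± 0.42 for KHOS minus U-2OS and did not pass (limma adjusted p = 1). The fitted change was -0.15 without the miR-1 array of U-2OS and 0.18 without that of KHOS.

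CORO1C, a type I coronin, had probe sets of opposite order between the lines. CORO1C 221676_s_at read 10.72 with miR-1, 10.88 with miR-null and 10.47 in control KHOS cells, and 11.25, 11.49 and 11.27 in the same groups of U-2OS. For CORO1C 222409_at the KHOS arrays gave 10.63, 10.60 and 10.89, and those of U-2OS 10.13, 10.35 and 10.44. Between miR-1 and miR-null the KHOS change was -0.16 through the first and 0.03 through the second, and the U-2OS change was -0.24 and -0.22. Fitted changes were -0.20 ± 0.18 and -0.09 ± 0.18, and neither passed.

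TAGLN2, a transgelin found widely outside muscle, had probe sets with the same order of groups in U-2OS. TAGLN2 200916_at read 11.54 on both the miR-1 and the miR-null array and 11.76 on the control array of KHOS. In U-2OS it read 11.68 with miR-1, 11.47 with miR-null and 11.92 in control cells. TAGLN2 210978_s_at read 9.92, 9.95 and 10.25 in those KHOS groups and 10.42, 10.16 and 10.58 in those of U-2OS. Both probe sets differed by less than 0.03 between miR-1 and miR-null in KHOS and were higher with miR-1 in U-2OS, by 0.21 and 0.26, for fitted changes of 0.11 ± 0.18 and 0.11 ± 0.18.

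CNN3, the acidic calponin of non-muscle cells, was lower with miR-1 than with miR-null through both probe sets and in both lines, by sizes that did not pass. CNN3 201445_at read 11.13 with miR-1, 11.27 with miR-null and 11.37 in control KHOS cells, and 11.43, 11.61 and 11.92 in U-2OS. For CNN3 228297_at the KHOS arrays gave 8.84, 9.11 and 9.12, and those of U-2OS 8.57, 8.76 and 9.38. The fitted changes were -0.15 ± 0.18 and -0.23 ± 0.22. The second was the other member value past 1.2-fold within KHOS, at -0.27, and in that line 12.6% of all probe sets were lower by that much.

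LASP1, a LIM and SH3 domain protein of focal adhesions, read 10.55 with miR-1, 10.58 with miR-null and 11.26 in control KHOS cells. In U-2OS cells it read 10.67 with miR-1, 10.80 with miR-null and 11.65 in control cells. The plasmid arrays of a line lay close together, with miR-1 minus miR-null at -0.03 in KHOS and -0.13 in U-2OS (fitted -0.08 ± 0.18), and far below control.

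By sign alone, 6 of the 10 member probe sets were lower with miR-1 than with miR-null in both lines, where 32.5% of all probe sets were, and 0 were higher in both, where 16.3% were. The 6 were both TWF1 and both CNN3 probe sets, CORO1C 221676_s_at and LASP1. By at least 1.2-fold, 2 were lower in KHOS, where 12.6% of all were, and 1 in U-2OS, where 20.8% were, and 0 were higher in either line, where 8.52% and 13.2% were. After a further quantile normalization 2 members were higher by that fold in U-2OS, where 17.2% of all were, and 1 was lower in KHOS, where 9.05% were. As an interaction term, a different miR-1 change in KHOS than in U-2OS passed for none of the 10 and for 0% of all probe sets (limma), with 615 probe sets and 0 members at an unadjusted p under 0.05. That fit treats the miR-null array and the control array of each line as equals.

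**Figure D2:**
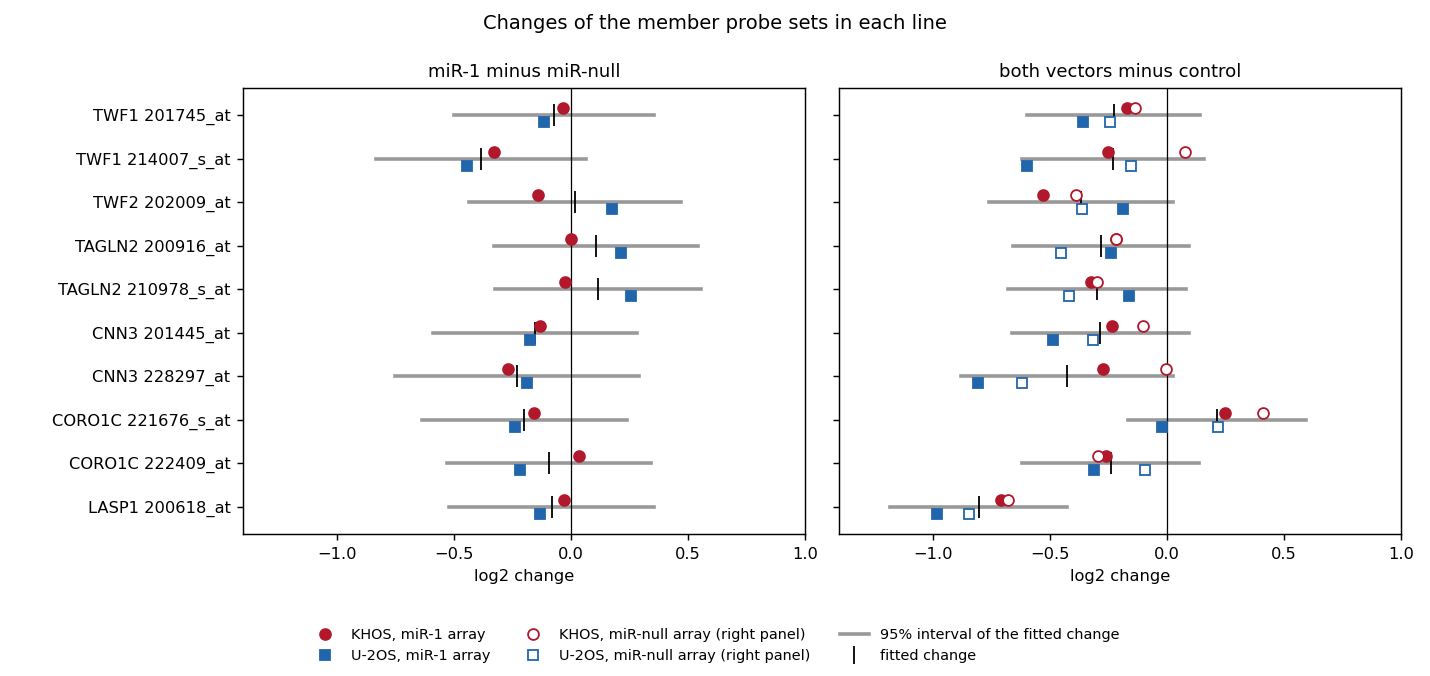
Log2 changes (horizontal axes) of the 10 tested member probe sets, as the value in each line (circles KHOS, squares U-2OS) and the change fitted over both lines (tick) with its 95% interval (grey). Left, every interval of miR-1 minus miR-null includes 0; right, where filled points are miR-1 minus control and open points miR-null minus control, the LASP1 interval alone lies wholly below 0.

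Set against control, the members' fitted changes had a median of -0.28, further from 0 than the -0.09 between the plasmids. LASP1 was the furthest, 1.75-fold lower in the plasmid arrays. Its log2 values with either plasmid ran from 10.55 to 10.80, below both control arrays, and the changes from control were -0.71 with miR-1 and -0.68 with miR-null in KHOS and -0.98 with miR-1 and -0.85 with miR-null in U-2OS. The fitted change for both plasmids against control was -0.80 ± 0.16 (95% interval -1.18 to -0.43), lower than all but 2.27% of probe sets. It did not pass (limma adjusted p = 0.139), but it passed where the prior variance followed the mean level (limma adjusted p = 0.0312). It did not pass without the line term. The fitted change was -0.91 without the KHOS control array and -0.69 without that of U-2OS, each a fit with 1 control array left.

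None of the other 9 tested member probe sets passed either, and 0.00732% of all did. Of the 10, 9 had negative fitted changes, against 53.9% of all probe sets, whose median was -0.03. The same 9 to 1 split was found under each alternative that kept all 10 probe sets. After LASP1 came CNN3 228297_at (-0.43 ± 0.19), TWF2 (-0.37 ± 0.16), TAGLN2 210978_s_at (-0.30 ± 0.16), CNN3 201445_at (-0.29 ± 0.16) and TAGLN2 200916_at (-0.28 ± 0.16). CORO1C 222409_at had -0.24 ± 0.16, and TWF1 had -0.23 ± 0.16 through 214007_s_at and -0.23 ± 0.15 through 201745_at. CORO1C 221676_s_at stood on the other side at 0.21 ± 0.16. Without the KHOS control array CNN3 228297_at had -0.71, and without the U-2OS control array -0.14, each with 1 control array left.

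In 8 of the 10 member probe sets all plasmid arrays were below the control array of their own line, and 24% of all probe sets had this order, while 0 had all of them above, where 14.3% did. The exceptions were TWF1 214007_s_at, where the KHOS miR-null array was 0.08 above control, and CORO1C 221676_s_at. In 5 of them, TWF1 201745_at, TWF2, TAGLN2 200916_at, CNN3 228297_at and LASP1, all 4 plasmid arrays lay below both control arrays, as in 6.27% of all probe sets. None had all 4 above both control arrays, as 4.02% of all did.

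The empty plasmid alone was also set against control, which shares its arrays with the comparison above. None of the 10 member probe sets passed, and 0.00366% of all did. LASP1 had -0.76 ± 0.18 (limma adjusted p = 0.33), TWF2 -0.38 ± 0.19 and CORO1C 221676_s_at 0.31 ± 0.18. With 1 control array left, LASP1 had -0.87 without that of KHOS and -0.65 without that of U-2OS. By at least 1.2-fold, 4 member probe sets were lower with miR-null than in control KHOS cells and 6 in U-2OS cells, where 15.1% and 34% of all were. Higher by that fold were 1 in KHOS, CORO1C 221676_s_at, and 0 in U-2OS, where 21.9% and 19.5% of all were. TWF2, TAGLN2 210978_s_at and LASP1 were lower by that fold in both lines, as 8.91% of all were, and 0 were higher in both, where 5.82% were. By sign alone 8 of the 10 were lower in both lines and 1, CORO1C 221676_s_at, was higher in both, where 30.8% and 25.6% of all were.

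With miR-1 against control, 4 member probe sets were lower by at least 1.2-fold in KHOS and 6 in U-2OS, where 20.8% and 38.9% of all were. In neither line was a member higher by that fold, where 20.8% of all were in KHOS and 21.7% in U-2OS. CNN3 228297_at and LASP1 were lower by that fold in both lines, as 11.9% of all were, and 0 were higher in both, where 5.36% were. By sign alone 9 of the 10 were lower in both lines, where 34.2% of all were, and 0 were higher, where 20.6% were. The exception was CORO1C 221676_s_at, at 0.25 in KHOS and -0.02 in U-2OS.

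Some array controls differed between the plasmid arrays and control as well. The 28S ribosomal RNA control probe set read 12.70 with miR-1 and 12.41 with miR-null in KHOS, against 11.49 in control cells, and 13.13 and 13.02 in U-2OS, against 12.06. Hybridization spike-ins averaged 9.93 with miR-1, 10.13 with miR-null and 9.76 in control KHOS cells, and 11.65, 11.33 and 10.81 in U-2OS. For actin, the array's own control probe sets read higher at the 3′ end than at the 5′ end by 2.90 with miR-1, 2.89 with miR-null and 2.68 in control KHOS cells, and by 2.49, 2.64 and 2.40 in those groups of U-2OS. For GAPDH the 3′ end was higher by 0.53 with miR-1, 0.59 with miR-null and 0.55 in control KHOS cells, and by 0.46, 0.48 and 0.42 in those groups of U-2OS, with no shared order. The part of these controls in the values of LASP1 and the other members was not tested.

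**Figure D3:**
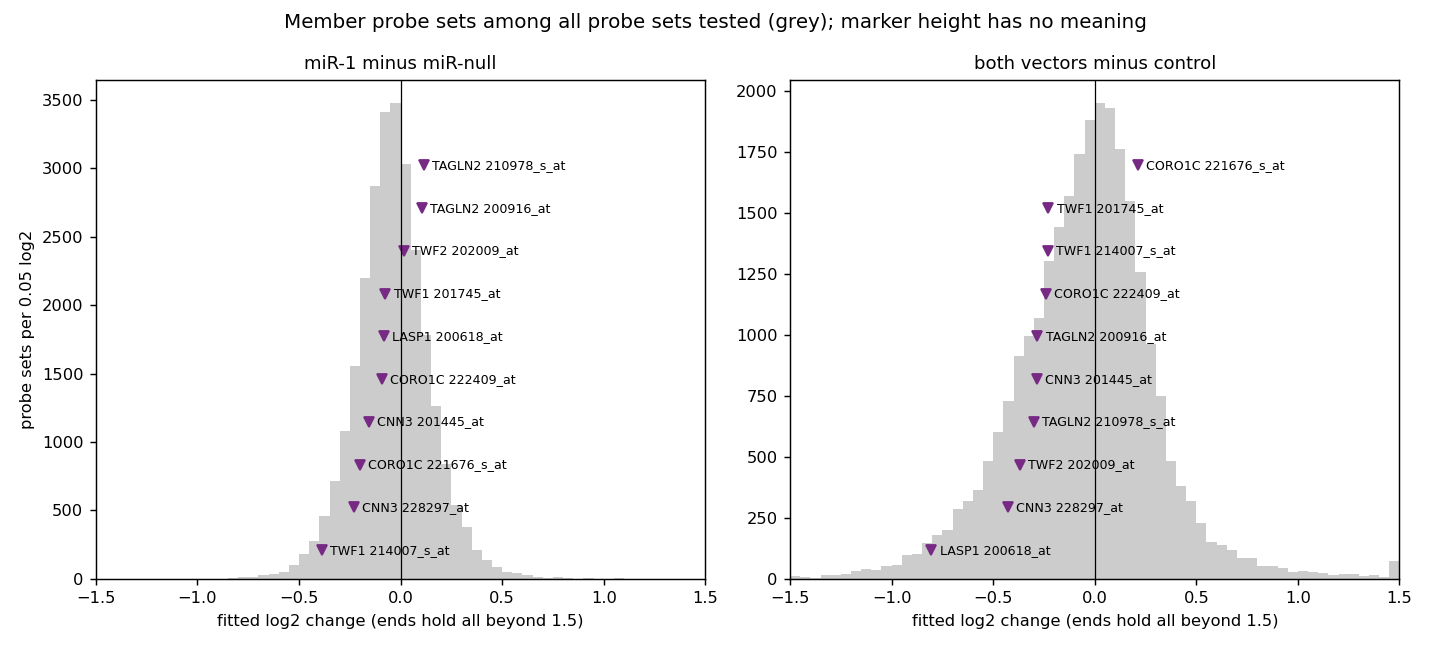
Fitted log2 changes (horizontal axes) of the 10 member probe sets (triangles) on the number of all 27307 probe sets per 0.05 log2 units (grey bars, with values beyond 1.5 in the end bars). In miR-1 minus miR-null, left, TWF1 214007_s_at is the lowest member at -0.39; in both plasmids minus control, right, 9 of 10 members lie below 0, LASP1 lowest at -0.80.

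Since most members shared a direction against control, their promoters were read for common letters. Windows of 250 bases before each RefSeq start (GRCh38.p14) were available for all 7 genes, 14 in all, with CAP1 included though it had no expression value here. The GC box, GGGCGG on either strand, with overlapping matches counted, was in 9 of the 14 windows, and in 42.6% of the 35116 windows of all genes. Each of the 7 genes had it in at least 1 window. Some genes have several windows, and the share of all genes with at least 1 such window was not analysed here. Neither the CArG box, the element bound by serum response factor, nor the letters TATAAA on either strand occurred in any of the 14, against 1.16% and 10.7% of all windows. LASP1 was the member with the largest difference from control. TWF1 had the most negative member change between miR-1 and miR-null, but only through the weaker of its tested probe sets. Through its strongest probe set it was not the lowest member. The windows of LASP1 and TWF1 are shown 5′ to 3′ on the gene's strand with GC boxes in capitals.
LASP1, chr17:38869808-38870057, plus strand: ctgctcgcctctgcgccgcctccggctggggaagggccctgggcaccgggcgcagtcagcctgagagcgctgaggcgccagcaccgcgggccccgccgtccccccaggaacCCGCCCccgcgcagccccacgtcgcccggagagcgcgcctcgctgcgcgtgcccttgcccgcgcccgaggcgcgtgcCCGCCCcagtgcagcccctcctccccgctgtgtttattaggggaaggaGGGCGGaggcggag
TWF1, chr12:43806318-43806567, minus strand: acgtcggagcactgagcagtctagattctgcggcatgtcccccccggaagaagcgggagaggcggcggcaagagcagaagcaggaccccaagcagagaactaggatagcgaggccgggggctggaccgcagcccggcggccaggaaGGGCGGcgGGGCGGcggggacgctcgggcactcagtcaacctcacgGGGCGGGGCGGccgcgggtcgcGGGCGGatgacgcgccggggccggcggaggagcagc
LASP1 has 3 such boxes and TWF1 has 5. A match of letters is a description and not a binding site.

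Between KHOS and U-2OS 1 of the 10 member probe sets passed, where 51.5% of all passed, 30.5% higher and 21% lower in KHOS. CORO1C 221676_s_at was lower in KHOS, by 0.65 ± 0.15 on the log2 scale (limma adjusted p = 0.0116), with values of 10.47 to 10.88 in KHOS and 11.25 to 11.49 in U-2OS. Without either miR-null array the difference was -0.67 and no longer passed (limma adjusted p = 0.0927), while the other alternatives reached down to a limma adjusted p = 0.00135. CORO1C 222409_at had the opposite difference, 0.41 ± 0.15 (limma adjusted p = 0.0582), with 10.60 to 10.89 in KHOS and 10.13 to 10.44 in U-2OS. The CORO1C probe sets thus disagreed both between lines and between plasmid and control, and neither can stand alone for the gene. In 2 member probe sets, CORO1C 221676_s_at and CNN3 201445_at, all KHOS arrays lay below all U-2OS arrays, and in 1, CORO1C 222409_at, above them, where 30% and 33.1% of all probe sets did.

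The other members differed less between KHOS and U-2OS. CNN3 201445_at had -0.40 ± 0.15 (limma adjusted p = 0.0616), with 11.13 to 11.37 in KHOS, below 11.43 to 11.92 in U-2OS. For TAGLN2 210978_s_at, TWF1 214007_s_at and LASP1 the differences were -0.35, -0.26 and -0.24, and for TWF1 201745_at and TAGLN2 200916_at -0.10 and -0.08. TWF2, at 0.15 ± 0.15, and CNN3 228297_at, at 0.12 ± 0.18, were on the positive side as deposited and on the negative side (-0.19 and -0.22) after quantile normalization, which moved the median of all probe sets in this comparison to -0.11, against 0.02 as deposited. With that normalization 5 of the 10 passed, all lower in KHOS, where 52.8% of all passed, 27.7% lower in KHOS.

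The change with a plasmid was also compared between the lines, with the spread taken from the miR-1 and miR-null arrays within a line and none from the single control array of each. None of the 10 member probe sets passed, and 1.06% of all did, 0.97% with a more positive change in KHOS and 0.0916% with a more negative one. CNN3 228297_at came closest, at 0.57 ± 0.27 (limma adjusted p = 0.276): its changes from control were -0.28 with miR-1 and -0.0048 with miR-null in KHOS and -0.81 with miR-1 and -0.62 with miR-null in U-2OS. LASP1 had 0.22 ± 0.24, against a median of 0.14 over all probe sets.

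Other genes of the actin system, under 87 symbols in lists by role, were read through the probe set with the highest mean, and 72 of them were tested. Of the rest, 4 were below the level tested and 11 had no probe set under the symbol listed, among them MKL1 and MKL2, older symbols of MRTFA and MRTFB, which were tested under the newer ones. Between miR-1 and miR-null 0 passed, with 54 negative and 18 positive, where 60.3% of all probe sets were negative. The median of the 72 was -0.07, against -0.04 over all probe sets. These genes have 1 probe set each, the highest, while the shares and medians of all probe sets are over every one tested. Among paralogues of the members, 5 of 10 were negative, from CNN1, the smooth muscle calponin (-0.38), to CAP2, the muscle-enriched relative of CAP1 (0.34). Genes listed with the actin monomers ran from GMFB, a glia maturation factor (-0.14), to PFN1, profilin 1 (0.06). Nucleation genes ran from ARPC1B, an Arp2/3 subunit (-0.35), to DIAPH3, a formin (0.09), and were negative for 11 of 12. Capping and severing genes ran from EPS8, a barbed-end capper (-0.21), to ADD1, an adducin (0.01). Crosslinking and coating genes ran from ACTN4, an alpha-actinin (-0.31), to TPM1, a tropomyosin (0.15). The most negative actomyosin gene was MYH10, a non-muscle myosin heavy chain (-0.23). Regulators ran from MRTFA, the actin-sensing coactivator of serum response factor (-0.36), to LIMK2, a cofilin kinase (0.12). CNN1 was lower with miR-1 than with miR-null in both lines, by 0.29 in KHOS and 0.47 in U-2OS. Of all probe sets, 2.5% were lower by at least 1.2-fold in both lines. The KHOS values of CNN1 were all under the level tested, at 4.73 with miR-1, 5.02 with miR-null and 4.73 in control cells.

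With both plasmids against control 0 of these 72 passed, with 59 negative and 13 positive, where 53.9% of all probe sets were negative. The median of the 72 was -0.22, against -0.03 over all probe sets and -0.28 over the member probe sets. The most negative was MYLK, the myosin light chain kinase, at -1.23 ± 0.19 (limma adjusted p = 0.124), and the most positive TAGLN3, a transgelin of neurons, at 1.03 ± 0.20. All 10 actomyosin genes were negative, with a median of -0.26, and 7 of 9 capping and severing genes, whose median was -0.30. Of the members' paralogues 6 of 10 were negative, and their median was -0.02. LASP1 lay beside FSCN1, the bundling protein fascin (-0.81 ± 0.18), and MRTFB, a coactivator of serum response factor (-0.83), in size.

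**Figure D4:**
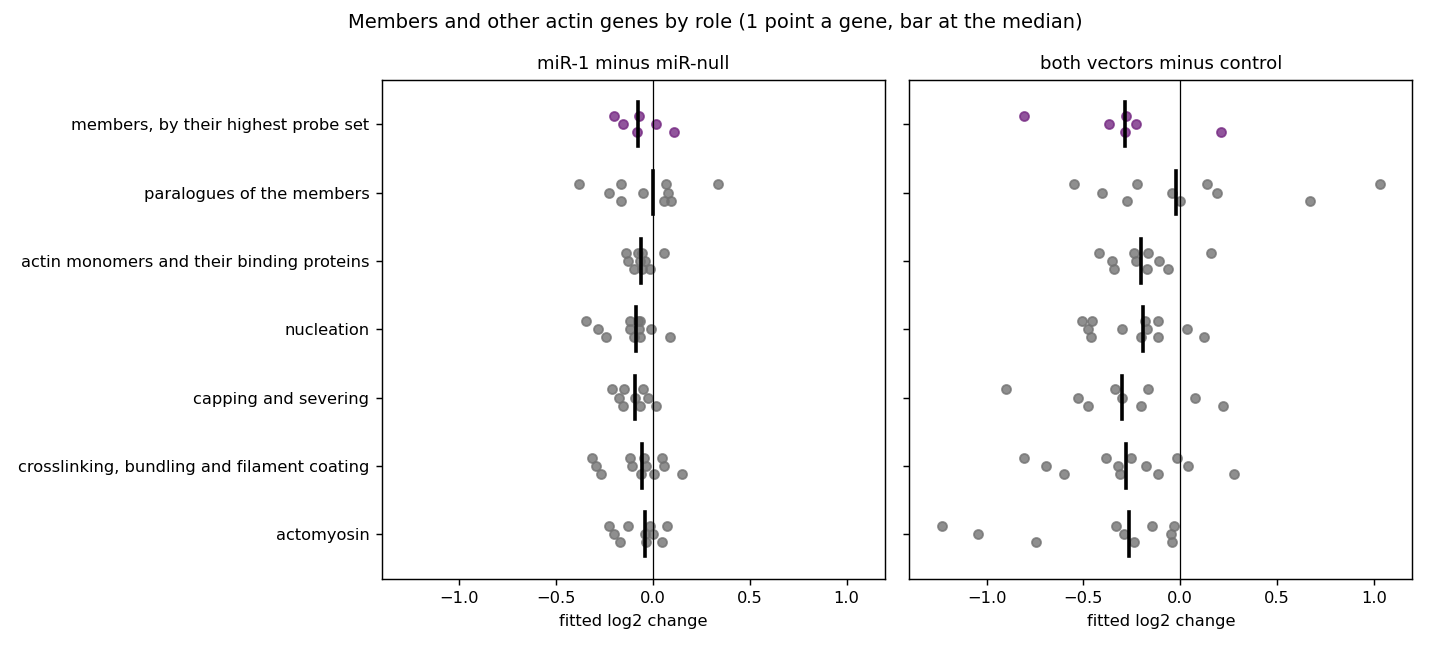
Fitted log2 changes (horizontal axes) of the 6 members, each by its highest probe set, and of the other actin genes tested in 6 roles, with 1 point a gene and a bar at each median; regulators are not drawn. In miR-1 minus miR-null, left, the points crowd around 0; in both plasmids minus control, right, all medians drawn are negative, from -0.30 in capping and severing to -0.02 in the paralogues.

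Between KHOS and U-2OS 23 of the 72 genes were higher and 17 lower (limma), where 30.5% of all probe sets were higher and 21% lower. Of the 72, 1 passed in the line difference of the plasmid change, where 1.06% of all probe sets did. SSH1, a phosphatase that activates cofilin, read 8.46 with miR-1 and 8.46 with miR-null in KHOS, against 8.31 in control cells. In U-2OS it read 6.66 with miR-1 and 6.74 with miR-null, against 7.98 in control cells. The U-2OS plasmid arrays were thus far below their control and those of KHOS slightly above theirs, a line difference of 1.43 ± 0.24 (limma adjusted p = 0.0434). Each line has 1 control array, whose own spread is not in this error. The call was lost after quantile normalization (1.20, limma adjusted p = 0.125) and without the KHOS miR-null or KHOS miR-1 array (limma adjusted p = 0.219 and 0.232). The lowest limma adjusted p among the alternatives was 0.0104.

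The genes most like each member over the 6 arrays, after the mean of each line was taken off, were named by Pearson's r among 12957 others. For TWF1 these were ZNF106 (1 after rounding to 4 decimals), IFRD2 (0.9997) and GNA11 (0.9996). The nearest gene was WDR54 to TWF2 (0.998), LOC100132356 to TAGLN2 (0.998), AGO1 to CNN3 (0.9996), SLC38A2 to CORO1C (0.997) and RSU1 to LASP1 (0.9994). With 6 arrays that share their lines, such values are common: 908 genes had an r over 0.95 with TWF1 and 724 with LASP1. Among the members themselves TWF1, CNN3 and LASP1 were closest, at 0.984 for TWF1 with CNN3 and 0.967 for TWF1 with LASP1, each by its highest probe set. The CORO1C probe sets went opposite ways here too, with values of -0.80 (TWF2) to -0.24 (CNN3) with the 5 other members for 221676_s_at and of 0.54 (TAGLN2) to 0.88 (LASP1) for 222409_at. The likeness of SLC38A2 above is to 221676_s_at.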

How the data were processed

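Gene expression was measured on 6 Affymetrix U133 Plus 2.0 arrays, 1 for each line and group. The deposited log2 values came from RMA, run by the authors in the Qlucore software according to the series' design text; the submitters' processing notes name RMA too. Each array held RNA pooled from 3 flasks per the labels' protocols, and no line and group has a second array. In the additive fits, p-values thus rest on how far the lines disagree in their treatment changes, not on replicates. The 54675 deposited probe sets, with log2 values of 2.83 to 14.91, include 62 controls, which were left out. The annotation gave 41091 of the others 1 symbol, 1801 several and 11721 none, and genes were named from the first kind only. Of these, 41037 matched a RefSeq gene by Entrez identifier.

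The 27307 probe sets with a mean of at least 5.11 were fitted with limma 3.58.1 in R 4.3.3 (lmFit, eBayes), on all 6 arrays with treatment and line as additive terms and 2 residual degrees of freedom. That spread holds array noise and any line difference in the response together. On simulated data of 27307 probe sets, log2 differences of 2 between miR-1 and miR-null were called in 92.5% of cases and differences of 1 in 0%. The simulated noise was independent between values, with spreads drawn from the limma prior and no line difference in the treatment changes. These rates may therefore not hold for the real arrays. The members, lists and tests were chosen with earlier results of these data known. Every member probe set is named. From each actin list the genes with the most positive and most negative miR-1 change were named, with any that passed outside KHOS against U-2OS. The most positive actomyosin gene is not reported here. MYLK, TAGLN3, FSCN1 and MRTFB were chosen after their values were seen. Alternatives were no level filter, quantile normalization, a prior variance that follows the mean, 1 probe set a gene, fewer arrays, no line term and each array left out.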

Additional observations from a re-analysis of the deposited data

Results flagged for a closer look

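SSH1, the cofilin phosphatase, was 1 of 72 other actin genes past the threshold in the test of a plasmid change that differs between the lines, which 1.06% of all probe sets passed. The line difference, KHOS minus U-2OS, was 1.43 on the log2 scale (limma adjusted p = 0.0434), with 2 of 2 plasmid arrays above control in KHOS and 2 of 2 below it in U-2OS. The 1 control array of each line adds no spread to this test. The alternatives run for SSH1 were chosen after its value was seen. No member probe set passed this test or that of a miR-1 change differing between the lines.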

How the results depend on the processing

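With miR-1 against miR-null 0 member probe sets and 0 probe sets in all passed under every alternative run. Of 266 fitted changes of member probe sets under alternatives that kept all arrays or only those of the conditions compared, 254 kept their direction and side of the threshold, and of 320 with 1 array left out 300 did. The count for miR-null against control, 1 in all, was 36 with a variance prior fitted to the mean level, 0 with 1 probe set a gene, 4 on the arrays compared and 1 to 2751 with 1 array left out (members 0 to 1). For both plasmids against control, 2 in all, it was 10 with no level filter, 23 after quantile normalization, 196 (members 1) with that prior, 1 with no replicate block, that is without the line term, and 2 to 4454 with 1 array left out (members 0 to 2). The highest of these counts came without the KHOS control array, a fit with 1 control array left. For KHOS against U-2OS the member count was 5 after quantile normalization and 4 with that prior, where 52.8% and 53.1% of all passed, and 0 to 1 with 1 array left out, and the count in all was 7103 with 1 probe set a gene and 7983 to 17480 with 1 array left out. For the line difference in the plasmid change, 290 in all, it was 2 after quantile normalization, which moved the median of all probe sets to -0.03 from 0.14, 1159 with that prior, 3417 without the U-2OS miR-null array and 0 without the KHOS miR-1 array. Within lines, quantile normalization gave 1 member past 1.2-fold lower in KHOS and 2 higher in U-2OS.

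Signs turned after quantile normalization for TWF1 214007_s_at in miR-null against control (0.0071) and in the line difference of the plasmid change (-0.0087), and for TWF2 (-0.19) and CNN3 228297_at (-0.22) between lines. With 1 array left out, miR-1 minus miR-null ran from -0.15 to 0.18 for TWF2, -0.0057 to 0.22 for TAGLN2 200916_at, -0.21 to 0.020 for CORO1C 222409_at and -0.18 to 0.010 for LASP1, and miR-null minus control from -0.18 to 0.10 for TWF1 214007_s_at. The miR-1 change in KHOS minus that in U-2OS ran from -0.32 to 0.13 for TAGLN2 200916_at, -0.030 to 0.38 for CORO1C 221676_s_at, -0.24 to 0.61 for LASP1, -0.010 to 0.30 for CNN3 201445_at and -0.083 to 0.54 for CNN3 228297_at, and that in the plasmid change from -0.18 to 0.037 for CORO1C 222409_at and -0.15 to 0.11 for TAGLN2 210978_s_at. In the line difference of the miR-1 change, leaving out a miR-null or control array makes the other array of that line its only baseline. The cause of the other shifts was not tested. The line difference of the miR-1 change could not be fitted without a miR-1 array, nor that of the plasmid change without a control array. The number of arrays limits the precision, with a typical 95% interval of 0.49 to either side of a fitted miR-1 change.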
